A study of Arabidopsis thaliana with 8 samples.

Results

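UGT73B5, UGT73B4 and GT72B1 are genes for glucosyltransferases of Arabidopsis thaliana, and their transcripts were followed over the 8 expression arrays of the series. They were taken by gene symbol from the probe annotation, which gives each of them 1 probe set of its own, so they make up 3 of the 22810 probe sets on the array. Their loci are AT2G15480 for UGT73B5, AT2G15490 for UGT73B4 and AT4G01070 for GT72B1. The genes were chosen by their signal on these arrays, which was higher in fum than in met, so that difference is described here and not tested. All arrays hold total RNA, labelled with biotin, from cell cultures of the Ler accession (stock NW20) kept at 24 °C on Murashige and Skoog medium that holds sucrose, NAA (an auxin) and kinetin (a cytokinin). By title, 4 arrays are fum and 4 are met, each with a replicate number from 1 to 4. What fum and met stand for is not spelled out, neither is called a control, and nothing tells whether replicates were separate cultures, so each p-value below rests on array-to-array spread that may be technical. The series is titled as a study of core genes regulating programmed cell death in plants.

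The glucosyltransferases among the UGT family move glucose from UDP-glucose onto hormones, phenolic compounds and foreign chemicals. This makes these compounds more soluble in water and fit for storage in the vacuole. UGT73B enzymes act on phenolic compounds, and loss of UGT73B3 or UGT73B5 is known to weaken resistance to avirulent Pseudomonas syringae. UGT73B4 conjugates breakdown products of the explosive TNT. GT72B1, also written UGT72B1, attaches glucose to chlorinated phenols and anilines and to monolignols, the building blocks of lignin.

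The signal of all 3 genes was higher in fum than in met, by 1.72 to 1.98 times. For UGT73B5, fum replicates 1 to 4 read 73.5, 71.8, 96.9 and 82.7 signal units, and met replicates 1 to 4 read 41.3, 53.0, 42.7 and 40.9. The lowest fum array lay 1.35 times above the highest met array, so the groups did not overlap. The means were 81.2 ± 11.5 and 44.5 ± 5.74 (SD, n = 4), a log2 difference of 0.87 with an SE of 0.15. Log2 differences are those of mean log2 signals, and folds are ratios of geometric means. Among the met arrays replicate 2 stood alone at the top, and the other 3 lay between 40.9 and 42.7.

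UGT73B4 read 104.5, 109.4, 144.8 and 126.7 on fum replicates 1 to 4 and 62.9, 82.3, 87.3 and 53.2 on met replicates 1 to 4. Here the groups came closest, with fum replicate 1 at 1.20 times met replicate 3, the highest met array. The means were 121.3 ± 18.3 in fum and 71.4 ± 16.1 in met (SD, n = 4), and the log2 difference was 0.78 (SE 0.18). Met values ran over a 1.64-fold range, wider than the 1.39-fold range of fum.

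GT72B1 read 249.8, 246.6, 346.9 and 358.7 on fum replicates 1 to 4, and 120.2, 194.7, 140.5 and 152.2 on met replicates 1 to 4. Replicates 3 and 4 lay clearly above replicates 1 and 2 in fum, and replicate 2 above the other met arrays. The means were 300.5 ± 60.6 and 151.9 ± 31.4 (SD, n = 4), with a log2 difference of 0.98 (SE 0.17). The lowest fum array was 1.27 times the highest met array.

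**Figure D1:**
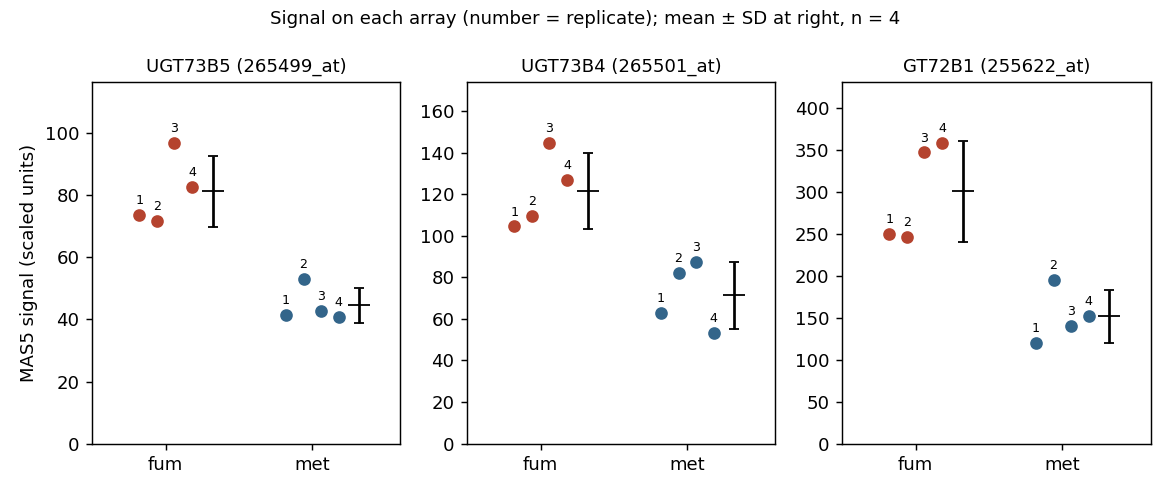
Signal of UGT73B5, UGT73B4 and GT72B1 (vertical axes, scaled MAS5 units, each from 0) on the 4 fum and 4 met arrays, with replicate numbers at the points and mean ± SD (n = 4) at the right of each group. In each panel all fum points lie above all met points, and met replicate 2 is the highest met array for UGT73B5 and GT72B1.

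In a limma fit over 13647 probe sets, 1.47% passed an adjusted p of 0.05 as higher in fum and 1.11% as lower, and all 3 genes were among the higher ones. All fum arrays lay above all met arrays in 6.04% of the probe sets tested. Since the genes were picked with this contrast known, neither count supports the difference. UGT73B4 was the least steady call. It passed under 5 of 18 alternative settings, against 14 for UGT73B5 and 15 for GT72B1. Those fits reuse the same arrays for the same chosen genes, so their counts describe the processing and do not support the difference. None of the 3 passed without fum replicate 4, with arrays centred on their median, or in a fit that takes in the array controls. In bulk cultures, a transcript made by fewer cells and less of it in each cell cannot be told apart.

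Within the groups, the genes moved partly together from array to array. The deviations of log2 signal from the group mean correlated over the 8 arrays with r = 0.85 between UGT73B5 and GT72B1, 0.72 between UGT73B5 and UGT73B4 and 0.54 between UGT73B4 and GT72B1. These values are descriptions of 8 arrays that share 1 scaling each, and they carry no test. Deviations of UGT73B4 parted from those of the other genes on met replicates 3 and 4, where they were 0.32 and -0.40. Those of UGT73B5 were -0.050 and -0.11 there. The within-group SD on the log2 scale was 0.19 for UGT73B5, 0.28 for UGT73B4 and 0.29 for GT72B1, and 38.8%, 68.2% and 70.5% of the tested probe sets had a smaller SD. On this measure UGT73B5 was steadier than most probe sets, and the other genes were less steady than most.

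The array controls moved with these genes. Biotin-labelled bacterial and phage transcripts are added to each sample before hybridization, and the geometric mean of their 9 probe sets was 186.3, 182.2, 110.8 and 122.0 on fum replicates 1 to 4. It was 286.0, 179.2, 286.0 and 265.1 on met replicates 1 to 4. The controls were thus 1.71-fold higher in met (ratio of geometric means), with an overlap at fum replicates 1 and 2 and met replicate 2. Within the groups, arrays with low controls tended to have high signal of the 3 genes. In UGT73B4, though, the highest met array, replicate 3 at 87.3, had controls of 286.0. The r of the deviations was -0.95 for UGT73B5, -0.95 for GT72B1 and -0.59 for UGT73B4 over 8 arrays. Spearman's rho was -0.88, -0.88 and -0.50. Without fum replicate 3 and met replicate 2, the arrays whose control deviations from the group mean lay farthest from the median deviation, r was -0.89, -0.92 and -0.23, so that of UGT73B4 rested on those arrays.

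With the control signal as a covariate, an alternative chosen after seeing the data, the log2 differences were 0.48 (SE 0.18) for UGT73B5, 0.42 (SE 0.25) for UGT73B4 and 0.39 (SE 0.16) for GT72B1. Each kept its sign and was smaller than without the covariate by over 1.5 times. In that fit no probe set of 13647 passed with limma, with 600 higher and 595 lower at an unadjusted p below 0.05. Group and control signal themselves correlated (r = -0.78), so such a fit cannot fully part them. On the 3 arrays with like controls, the mean of fum replicates 1 and 2 was 1.37 times met replicate 2 for UGT73B5, 1.30 times for UGT73B4 and 1.27 times for GT72B1, with 1 met array and no test. All fum arrays lay above all met arrays in these genes, so ratios above 1 were fixed beforehand. What part the controls play in the difference was not tested further. After quantile normalization the log2 differences were 0.84, 0.75 and 0.96 in the same order.

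**Figure D2:**
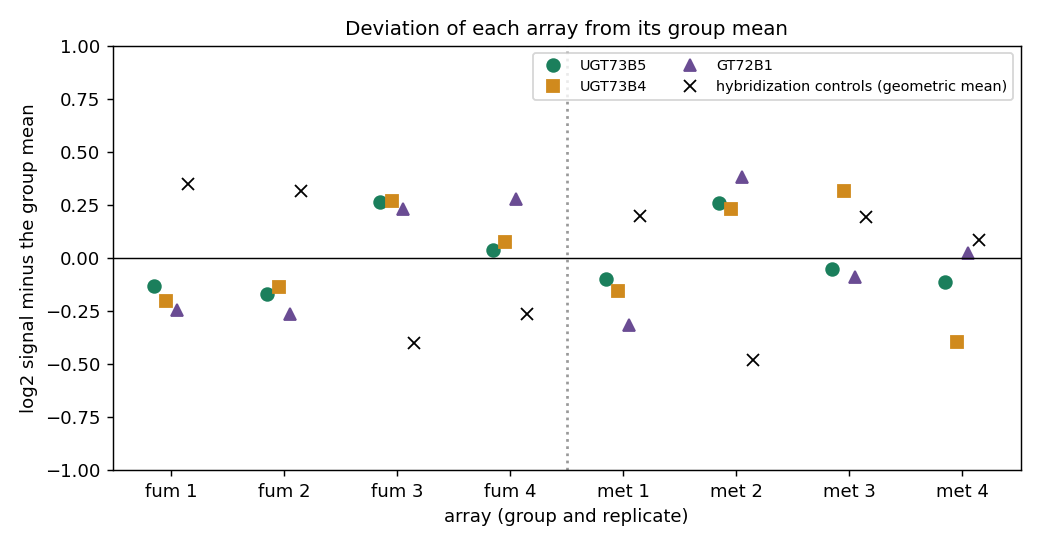
Log2 signal minus the mean of its group (vertical axis) on each array (horizontal axis) for UGT73B5, UGT73B4, GT72B1 and the geometric mean of the hybridization controls. The controls lie low on fum replicates 3 and 4 and met replicate 2, where the 3 genes lie above their group mean.

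Other array measures stood apart on single arrays. The signal for 25S ribosomal RNA was 157.6 on fum replicate 3, 824 and 1305 on met replicates 1 and 2, and 2806 to 4491 on the remaining 5 arrays. Those 5 were fum replicates 1, 2 and 4 and met replicates 3 and 4, again chosen after seeing the data. Within them the log2 differences were 0.86 for UGT73B5, 0.73 for UGT73B4 and 0.94 for GT72B1, close to those of all arrays. Over the 8 arrays, deviations of log2 25S signal from the group mean correlated with those of the genes. The r was -0.71 for UGT73B5, -0.41 for UGT73B4 and -0.34 for GT72B1, and what part the 25S signal plays was not tested. The ratio of 3′ to 5′ actin signal was 12.01 on met replicate 1 and 1.92 to 2.39 elsewhere. Without that array the log2 differences of the 3 genes were 0.83, 0.73 and 0.88 in the same order. The labelled cell culture was checked against the few markers with a probe set of their own. These were 2 of 6 for dividing cells, 1 of 8 for leaf and 1 of 5 for root. Of dividing cell markers, AUR1 read 111.2 ± 14.4 in fum and 122.2 ± 7.03 in met, and PRL read 297 ± 79.6 and 301 ± 114 (SD, n = 4). The leaf marker RCA, for Rubisco activase, read 423 ± 33.4 and 518 ± 50.6 (adjusted p = 0.155 with limma). All fum arrays lay below all met arrays for RCA, as in 5.74% of all tested genes. The root hair marker EXPA7 stayed at or below 25 on every array. Markers of xylem and of embryo and seed cells were not analysed here, since none has a probe set of its own in the annotation.

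UGT73B5 and UGT73B4 are neighbours on chromosome 2, and in the RefSeq annotation of TAIR10.1 the span of UGT73B5 holds all of UGT73B4. The table lists 2 transcripts for UGT73B5 and 3 for UGT73B4. Signals of these probe sets may therefore not be independent, and the probe sequences were not used here to separate them. On the other side of UGT73B4, AT2G15500 read 10.9 to 16.8 in fum and 7.6 to 12.5 in met, below the signal of 21.1 used as a filter. TBL26, next to GT72B1 on chromosome 4, read 44.2 to 70.3 in fum and 57.0 to 87.0 in met, so the groups overlapped. The neighbours AT2G15470 and CPL3 were not analysed here, since the annotation gives them no probe set of their own.

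The rest of the family did not share the direction of these genes as a whole. Of 81 other UGT genes listed, 63 had a probe set of their own and 22 lay above the filter, of which 0 rose and 3 fell in limma at an adjusted p of 0.05. Over all 7471 genes tested, 1.41% rose and 0.776% fell. Probe sets shared between genes are outside these counts, and that of UGT73B2 and UGT73B3, described below, passed as higher (limma adjusted p = 0.00848). At an unadjusted p below 0.05, 1 of the 22 was higher and 4 were lower, where 8.58% of all tested genes were higher and 7.98% lower. The median log2 difference of the 22 was -0.071, against -0.0036 over all tested genes, and 10 of the 22 had a higher mean in fum. They ranged from -1.01 to 0.50. The family genes that fell were AT1G06000, AT2G28080 and UGT84A1.

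AT1G06000 read 61.5, 56.5, 55.3 and 60.9 on the fum arrays and 109.1, 114.2, 139.2 and 112.5 on the met arrays. Fum values sat in a narrow band far below every met value, and the log2 difference was -1.01 (SE 0.12, limma adjusted p = 0.00221). AT2G28080 read 136.7, 106.6, 93.4 and 130.9 in fum and 303.9, 199.2, 224.1 and 198.8 in met (log2 -0.98, SE 0.17, limma adjusted p = 0.0121). UGT84A1, which makes glucose esters of hydroxycinnamic acids, read 265.1, 181.2, 236.8 and 220.1 in fum and 271.0, 411.9, 421.3 and 450.8 in met (log2 -0.77, SE 0.17, limma adjusted p = 0.0390). In UGT84A1 only a small gap parted the highest fum from the lowest met array, and its call was lost in 7 of the 8 fits that left out 1 array. Those fits gave log2 differences of -0.94 to -0.67 and adjusted p from 0.00462 to 0.118, and the call was kept without met replicate 1. With all arrays, the call was also lost with centring on the array median (limma adjusted p = 0.0885), with no intensity trend (0.0871) and with the replicate number as a block (0.126). With the control signal as a covariate none of the 3 passed (limma adjusted p = 0.204 for AT1G06000, 0.503 for AT2G28080 and 0.409 for UGT84A1), and their log2 differences were -0.95, -0.70 and -0.91.

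Next by p among the tested family genes were UGT78D2 and AT5G12890. UGT78D2, a flavonoid 3-O-glucosyltransferase gene, averaged 380 ± 41.7 over the fum arrays and 476 ± 45.5 over the met arrays (SD, n = 4). Its log2 difference was -0.33 (limma adjusted p = 0.142). AT5G12890 averaged 65.6 ± 7.29 and 50.5 ± 7.95 (log2 0.38, limma adjusted p = 0.217), and it passed when arrays were weighted (limma adjusted p = 0.0244). Of the 22 other family genes above the filter, the groups did not overlap in 1 with fum above met, UGT74D1. They did not overlap in 4 with fum below met. Over all tested genes the shares were 5.80% and 5.74%.

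**Figure D3:**
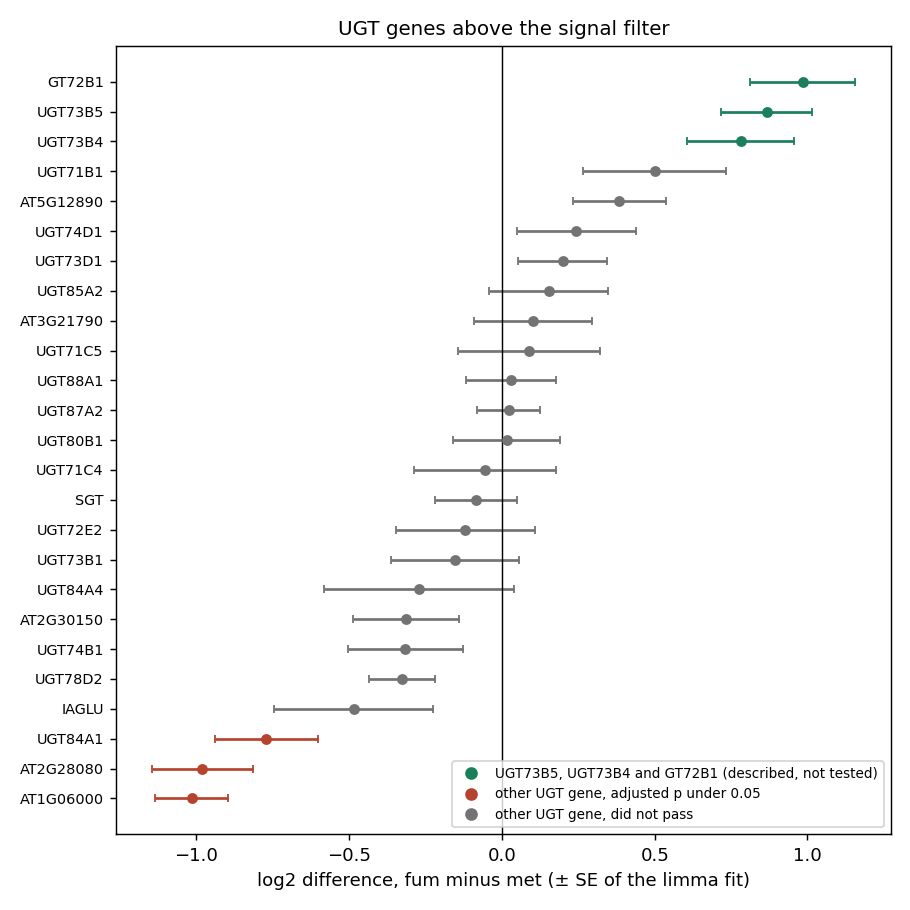
Log2 difference between fum and met (horizontal axis, points, with bars of 1 SE from the limma fit) for each UGT gene with a probe set of its own above the signal filter. Probe sets shared between genes, such as that of UGT73B2 and UGT73B3 at 1.03, are not shown. GT72B1, UGT73B5 and UGT73B4 lie at 0.78 to 0.98, the 22 other genes run from -1.01 to 0.50, and the 3 that passed lie below 0.

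The nearest relatives gave a mixed picture. A single probe set is paired in the annotation with both UGT73B2 and UGT73B3, so it names neither of them, and it was singled out after its values were seen. It read 185.4, 202.0, 276.9 and 199.7 on the fum arrays and 94.3, 137.7, 89.6 and 101.9 on the met arrays. As in UGT73B5, fum replicate 3 and met replicate 2 were the highest of their groups and the groups did not overlap. The log2 difference was 1.03 (SE 0.16, limma adjusted p = 0.00848), and it was 0.54 with the control signal as a covariate (limma adjusted p = 0.466). UGT73B1, the remaining gene of the subfamily, averaged 29.3 ± 3.52 over the fum arrays and 33.1 ± 7.61 over the met arrays (SD, n = 4), with a log2 difference of -0.15 (limma adjusted p = 0.757). Its signal ran from 25.1 to 43.5 over the arrays, not far above the filter of 21.1, where MAS5 values are noisy. Whether its difference departs from that of its relatives was not tested. For UGT73D1 the log2 difference was 0.20 (adjusted p = 0.518, limma).

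UGT73C7 lay below the filter and was not tested. It read 23.2, 26.2, 26.4 and 29.9 in fum and 16.5, 13.7, 10.5 and 17.1 in met, with no overlap at signals where MAS5 values are noisy. UGT73C1 and UGT73C2 stayed at or below 2.0 on every array. Of 6 relatives of GT72B1 in the UGT72 family with a probe set of their own, 1 was tested, UGT72E2, with 30.6 ± 5.96 on the fum arrays and 33.6 ± 8.20 on the met arrays (SD, n = 4, limma adjusted p = 0.836). The signal of UGT72E2 was also not far above the filter. Of the others, UGT72B3 and AT1G01390 (listed here as UGT72B2), reached at most 4.0 and 19.2. In all, 41 of the 63 other family genes lay below the filter.

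Few genes of the steps around glucosylation had a probe set of their own. Of 93 genes in 5 lists on sugar donors, foreign compound and oxylipin response, export, monolignol synthesis and glucoside turnover, 12 had one and 10 were tested, with 1 risen and 0 fallen in limma. At an unadjusted p below 0.05, 3 of the 10 were higher and 3 were lower, against the same 8.58% and 7.98% of all tested genes. The median log2 difference of the 10 was 0.084. The gene that rose was GSTU25, for a glutathione transferase, which is another route of conjugation of foreign compounds. It read 67.4, 83.1, 152.7 and 140.5 in fum and 29.0, 38.6, 50.4 and 33.0 in met. Like GT72B1, it was higher on fum replicates 3 and 4 than on 1 and 2 (log2 difference 1.50, SE 0.27, limma adjusted p = 0.0159). The call was lost without fum replicate 4 (adjusted p = 0.0682) or met replicate 4 (adjusted p = 0.0505). It was also lost within the 5 arrays with high 25S signal (adjusted p = 0.0605), and with the control signal as a covariate (adjusted p = 0.554, log2 0.82).

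The other tested genes did not pass. On the export side, the transporter list genes AT2G04070 and AT2G04050 differed by -0.48 and -0.55 on the log2 scale (limma adjusted p = 0.0772 and 0.124). BGLU46 and BGLU45, for beta-glucosidases known to act on monolignol glucosides, had 0.37 and 0.29 (limma adjusted p = 0.190 and 0.221), and BGLU42 had -0.22 (adjusted p = 0.314). Among monolignol genes, CCR2, for a cinnamoyl-CoA reductase, had 0.21 and HCT, for a hydroxycinnamoyl transferase, -0.046 (limma adjusted p = 0.354 and 0.865). USP, whose enzyme makes UDP-sugars, had 0.25 (limma adjusted p = 0.320), and AER, an alkenal reductase gene, -0.31 (adjusted p = 0.270). Array weights added calls for BGLU45 and BGLU46 as higher and AT2G04070 as lower, and BGLU45 and BGLU46 also passed within the 5 arrays with high 25S signal.

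Genes with the most similar signal were sought by Pearson's r of log2 signal over the 8 arrays, which takes in the group difference. For UGT73B5 these were CYP71B22, a cytochrome P450 gene (r = 0.99), followed by AT1G21080, AT4G16660, AT3G09570 and AT5G03610 (r of 0.985 to 0.987). CYP71B22 had 318.7, 315.8, 504.8 and 439.7 in fum and 58.9, 145.4, 73.3 and 53.9 in met, so met replicate 2 was its highest met array too. For UGT73B4 the closest were AT5G27490 (r = 0.98), AT3G09570, AT4G08220, AT1G11200 and AT1G04200 (r of 0.960 to 0.964). AT3G09570 stood in both of these groups. For GT72B1 they were MSRB3, a methionine sulfoxide reductase gene (r = 0.98), AT5G15870, OS9, CYP71B24 and AT1G44130 (r of 0.975 to 0.979). OS9 belongs to protein quality control in the endoplasmic reticulum.

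Likeness of the deviations from the group means, which leaves out the group difference, gave other names in all but 1 case. The exception was AT5G27490 with UGT73B4 (r = 0.95), at 107.6, 116.9, 136.7 and 117.1 in fum and 86.3, 95.0, 105.3 and 78.2 in met. The other genes closest to UGT73B4 were CW9, FRA3, AT4G24820 and AT1G24140 (r of 0.919 to 0.956). For UGT73B5 they were AT5G58020, AT2G29150, AT4G16840, KEU, a gene of vesicle fusion in cytokinesis, and AT4G36210 (r of 0.970 to 0.984). For GT72B1 they were AT2G19180, AT1G07040, AT5G19875, AT5G18940 and AT2G25735 (r of 0.958 to 0.988). Some of these had no group difference, as AT1G07040 with 33.6 to 61.9 in fum and 34.6 to 62.0 in met shows (log2 -0.030, limma adjusted p = 0.968). GSTU25 reached r of 0.65 with UGT73B5, 0.79 with UGT73B4 and 0.69 with GT72B1. Each r is the highest or a chosen value among many probe sets over the same 8 arrays, and is a description.

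**Figure D4:**
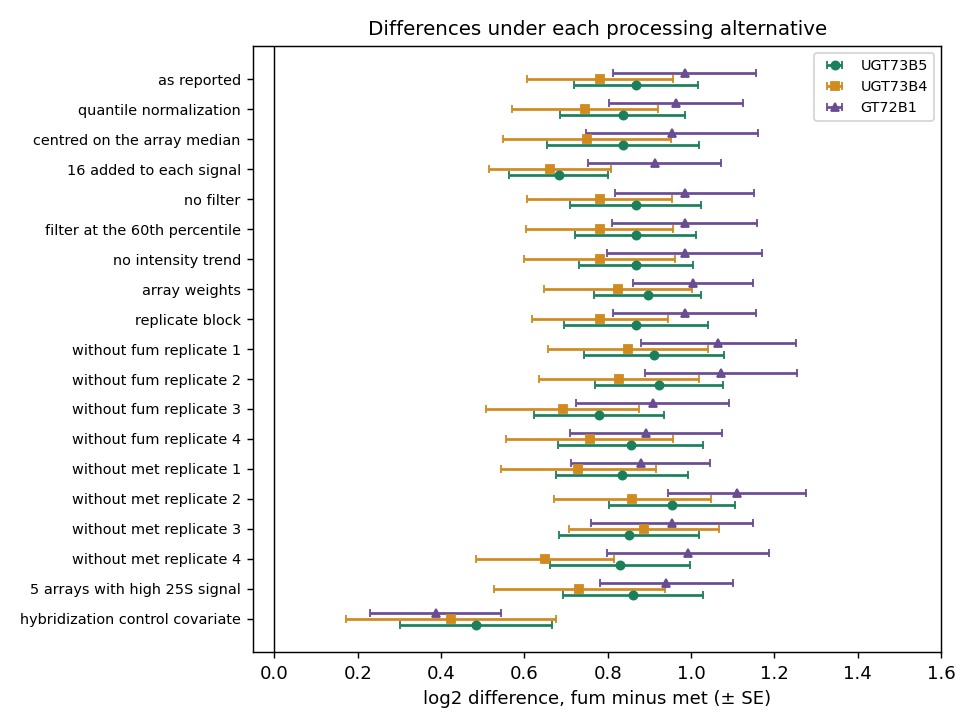
Log2 difference between fum and met (horizontal axis, with bars of 1 SE) of UGT73B5, UGT73B4 and GT72B1 as reported and under each of 18 alternative settings (vertical axis). All values lie above 0, and those with the hybridization control covariate, at 0.39 to 0.48, lie apart from the rest. Since the groups did not overlap, leaving out 1 array could not bring a value below 0.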

How the data were processed

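The deposited table holds linear signal intensity for 22810 probe sets on 8 arrays. Per the submitters' processing notes the authors used MAS5, with no version, and further steps and a genome build are not given in the sources used here. Each array lies on its own scale to a common target, and low values are noisy. Of the probe sets, 13513 had 1 gene in the annotation supplied with the data, 503 had several and the rest none. Of the 13513, 13436 matched RefSeq's TAIR10.1 gene table, which served for names and gene order only. The 93 values of 0 were raised to 0.1 and signals taken to log2. Control probe sets (64) and probe sets at or below the 40th percentile of mean log2 signal (21.1 units) were left out. The fit was made in R 4.3.3 with lmFit and eBayes of limma 3.58.1, with an intensity trend, and its two-sided p-values were adjusted by Benjamini and Hochberg's method over the 13647 probe sets left. A gene took its brightest unshared probe set (7471 genes). The procedure was tested on simulated data with independent noise for each probe set. Those data held no shift shared across an array and no control signal, so that test does not bear on the array controls. The number of arrays limits the precision.

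The members and lists were chosen with earlier results of these data known, and the lists written from general knowledge of the family by locus. Genes named are the 3 members, list genes that passed or had the smallest p (5 in the UGT family, 3 in each of the 5 other lists), the 5 most similar genes by each measure, genome neighbours, and the cell type markers with a probe set of their own. Values of UGT73C1, UGT73C2, UGT73C7, UGT73B1, UGT73D1, UGT72B3, AT1G01390, UGT72E2 and UGT74D1 were added after they were seen. Alternatives were another normalization, centring, 16 added to signals, other filters, no trend, weighted arrays, a block for the replicate number and each array left out; those on 25S signal and hybridization controls were added after seeing the data.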

Additional observations from a re-analysis of the deposited data

Results flagged for a closer look

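Met replicate 2 stood far above the other met arrays in UGT73B5, at 53.0 signal units against 40.9 to 42.7. Met replicate 3 stood far above the others in AT1G06000, at 139.2 against 109.1 to 114.2. In each case the gap to the nearest array took up most of the range of the group. Gaps of this kind also arise by chance in groups of this size. Several genes were looked at, so these gaps are not marked as unusual. In GT72B1, met replicate 2 at 194.7 also stood above the other met arrays, at 120.2 to 152.2. That gap took up a smaller part of the range and was not flagged. Met replicate 2 also had the lowest hybridization control signal of the met arrays, at 179.2 against 265.1 to 286.0, and what part that plays was not tested. Without met replicate 2 the log2 difference of UGT73B5 was 0.95, and without met replicate 3 that of AT1G06000 was -0.94.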

How the results depend on the processing

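The log2 differences of the 3 genes kept their sign under all 18 alternatives and moved by less than the spread between replicates under 17. Most of this was fixed beforehand and does not support the difference. The groups did not overlap, so leaving out 1 array could not change a sign. The filter, trend and block settings leave a difference of means unchanged. Without 1 array they ran from 0.78 to 0.95 for UGT73B5, 0.65 to 0.89 for UGT73B4 and 0.88 to 1.11 for GT72B1, and with the hybridization control covariate they were 0.48, 0.42 and 0.39. That covariate left 0 probe sets higher and 0 lower over the whole array, 0 other UGT genes lower, 0 genes of the other lists higher and 0 of the 3 members passing (limma, smallest adjusted p 0.0704). Of the members, 0 passed with centring on the array median, 1 with the replicate block, and 0 to 3 without 1 array. The counts of 200 probe sets higher and 151 lower became 64 and 52 with centring, 102 and 62 with no intensity trend, 738 and 585 with array weights, 65 and 50 with the replicate block, 329 and 243 within the 5 arrays with high 25S signal, and 65 to 257 and 47 to 159 without 1 array. Array weights also gave 1 other UGT gene higher, and 3 genes of the other lists higher and 1 lower. Those lists had 2 higher within the high 25S arrays and 0 to 1 without 1 array. Beyond the covariate the cause of these moves was not tested, and fewer arrays leave fewer degrees of freedom. Same-numbered arrays did not deviate together (r of -0.17, -0.30, -0.47 and 0.14 for replicates 1 to 4), so the block rests on the number alone. Probe sets near the filter signal of 21.1 limit what can be said of dim family members.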
